A study of Homo sapiens with 12 samples.

Results

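The 10 genes described here encode core proteins of proteoglycans of neural tissue: CSPG4, CSPG5, NCAN, VCAN, GPC1, GPC2, GPC4, SDC2, SDC3 and AGRN. They were chosen by name from the deposited translational efficiency table, and each was followed as the single transcript under which the deposited counts list it, so that they make up 10 of 19972 transcripts. The choice was made with results of the genotype comparison already known, so the tests below place each gene among all transcripts and are not independent evidence that the group changed. All 10 were present, and all 10 passed the filter on low counts in each comparison.

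The 12 libraries came from neurons induced from H1, an established human embryonic stem cell line, by overexpression of the transcription factor Ngn2. Each genotype, LLPHwt/wt or LLPHNterm/Nterm, gave 3 RNA-seq libraries of polyA RNA and 3 Ribo-seq libraries of ribosome footprints, the mRNA stretches that ribosomes shield from RNase. All cultures, controls included, carried the Ngn2 overexpression and were kept to 14 days in vitro without added glia, with doxycycline at 2 µg/mL and AraC, which acts against dividing cells, at 4 µM. All were harvested with Accutase in cycloheximide at 100 µg/mL. The sources used here do not say what the Nterm allele alters in LLPH. No label tells whether a genotype is 1 clone or whether its replicates were cultured apart, so the p-values reflect the spread among these libraries, which may be technical.

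A proteoglycan is a core protein that carries long sulfated sugar chains, either heparan sulfate or chondroitin sulfate. Glypicans are held to the membrane by a lipid anchor and syndecans by a membrane-spanning segment, both mostly with heparan sulfate, while the lecticans neurocan and versican are secreted chondroitin sulfate carriers that bind hyaluronan in brain matrix. In neurons these molecules present growth factors and guidance cues, bind receptor phosphatases and help to organise synapses.

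Libraries held 18944427 to 25089790 counts for RNA and 12652833 to 16356419 for footprints. Levels are given as CPM, counts scaled to library size by TMM, and are compared within a gene only, since transcript lengths were not used. A transcript is called when edgeR's quasi-likelihood test gives an adjusted p under 0.05 over all transcripts tested.

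RNA of LLPH, the targeted gene, was 27.2, 28.7 and 27.4 CPM for wt/wt against 30.8, 31.7 and 29.4 CPM for Nterm/Nterm, higher with no overlap but not called (log2 change 0.14 ± 0.06, adjusted p = 0.135). LLPH footprints were 6.72, 7.92 and 7.07 CPM against 3.12, 1.71 and 2.37 CPM, called lower (-1.60 ± 0.19, adjusted p = 1.77e-05), and its translational efficiency was called lower too (-1.74, adjusted p = 6.67e-05). Groups follow the sample titles, while for the 6 Ribo-seq samples a separate tag states the other genotype, and by that tag every footprint change below would have the opposite sign. Grouped by title, 1180 transcripts were called in the same direction in RNA and footprints and 1 in each of the opposite ways, and 3 were called for translational efficiency, against 4150 grouped by the tag.

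Among the 10 genes, 6 were called in RNA. CSPG4 and GPC2 rose in Nterm/Nterm, and VCAN, GPC1, GPC4 and AGRN fell. Over all 14659 transcripts tested in RNA, 17.9% were called, 7.25% higher and 10.6% lower. In footprints 6 were called as well, with GPC2 higher and CSPG4, VCAN, GPC4, SDC2 and AGRN lower, against 13.3% of 13566 transcripts, 4.36% higher and 8.91% lower. The median log2 change of the 10 was -0.000240 in RNA, where the median over all transcripts was -0.000386, and -0.24 in footprints against 0.01. The 3 libraries of each genotype did not overlap for 8 of the 10 genes in RNA, 4 higher and 4 lower, against 36.2% of all transcripts (17.4% higher and 18.8% lower). In footprints they did not overlap for 6, 2 higher and 4 lower, against 30.7% (14.8% higher and 15.9% lower). The RNA samples deviate together by replicate number, and with the replicate block NCAN joined the called genes, making 7, against 30.7% of all transcripts. Leaving out wt/wt RNA replicate 1 left 3 of the 10 called in RNA, where the calls over all transcripts also dropped, to 841 of 14790.

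**Figure D1:**
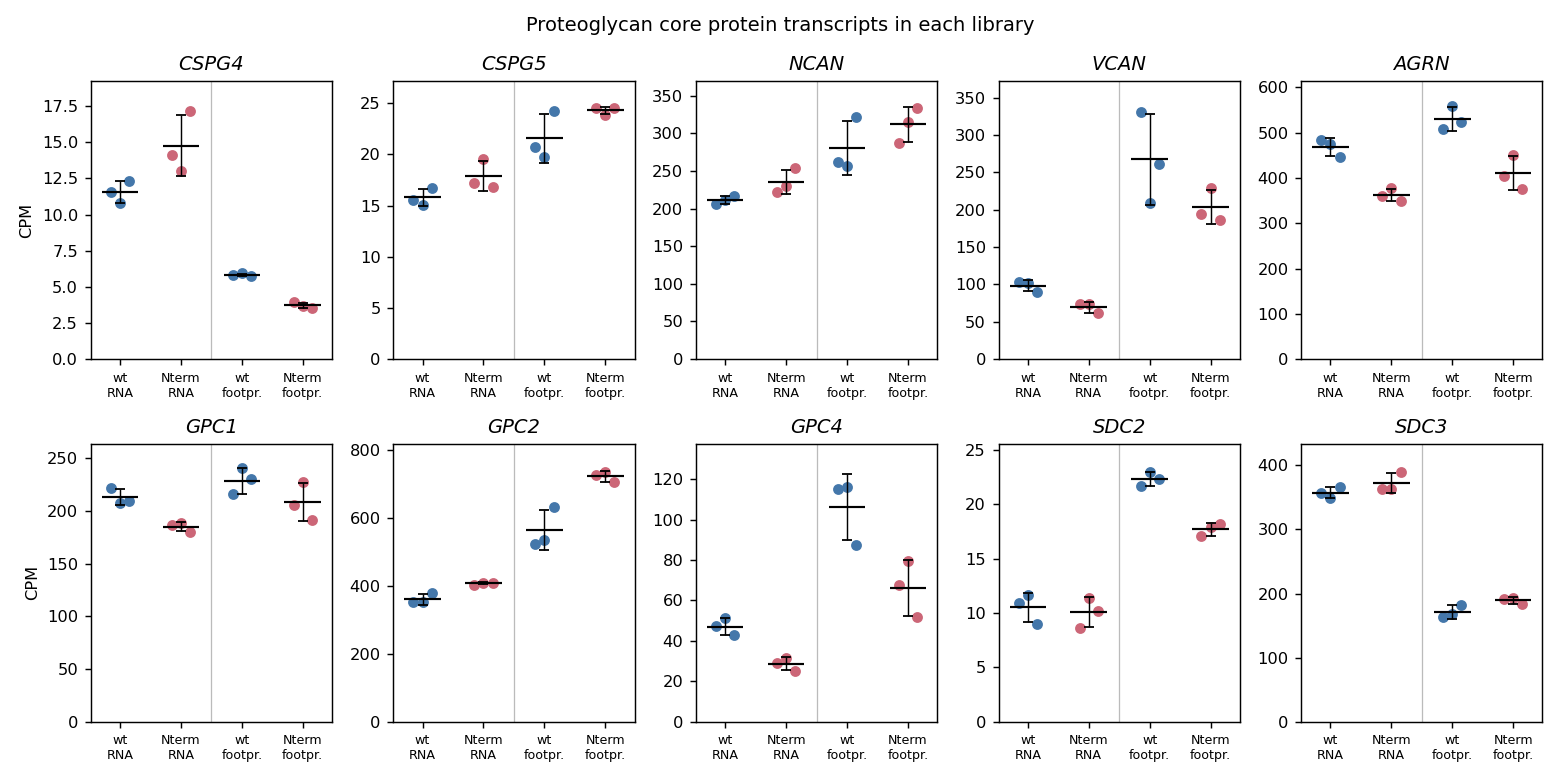
Levels of the 10 genes in each library, 1 panel per gene, with RNA and footprints in CPM on a linear axis that starts at 0 and wt/wt and Nterm/Nterm shown apart. Points are libraries and bars are the mean and SD of 3. CSPG4 is the gene whose Nterm/Nterm points lie above wt/wt in RNA and below it in footprints.

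**Figure D2:**
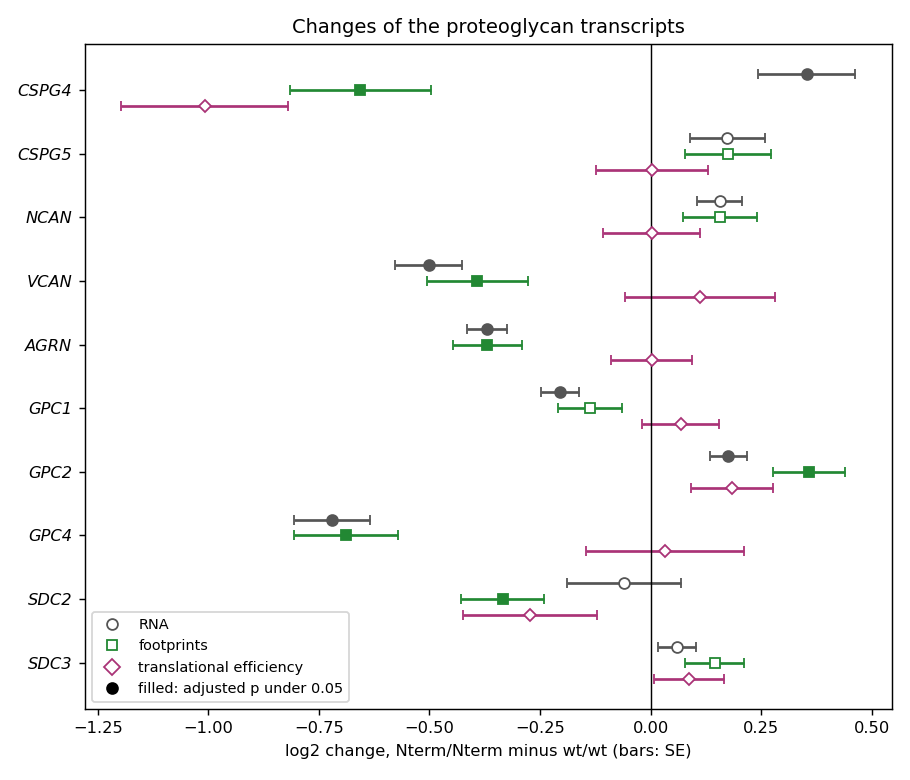
Log2 change of each gene, Nterm/Nterm minus wt/wt, with its standard error, in RNA, in footprints and in their difference, translational efficiency. GPC4 lies lowest in RNA at -0.72 and in footprints at -0.69, and CSPG4 lies lowest in translational efficiency at -1.01.

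CSPG4, also known as NG2, is a membrane-spanning chondroitin sulfate proteoglycan best known from oligodendrocyte precursors and pericytes. Its RNA was 11.6, 10.8 and 12.3 CPM in wt/wt and 14.1, 13.0 and 17.1 CPM in Nterm/Nterm. All 3 Nterm/Nterm libraries were above all 3 wt/wt libraries, by a log2 change of 0.35 ± 0.11 (SE; adjusted p = 0.0441). Its footprints were 5.80, 5.93 and 5.77 CPM in wt/wt and 3.92, 3.65 and 3.55 CPM in Nterm/Nterm. Here every Nterm/Nterm library was below every wt/wt library, with a log2 change of -0.66 ± 0.16 (adjusted p = 0.00930).

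These levels rest on few reads. RNA counts were 288, 236 and 309 in wt/wt against 280, 248 and 367 in Nterm/Nterm, and footprint counts were 76, 101 and 80 against 49, 47 and 54. Summed over the 3 libraries and scaled by library size, the RNA ratio of Nterm/Nterm to wt/wt was 1.28 (95% exact binomial interval 1.16 to 1.41) and the footprint ratio was 0.633 (0.514 to 0.777), intervals that cover counting error only. CSPG4 was the single transcript of 13422 tested in both assays that was called higher in RNA and lower in footprints, 0.00745% of them, and 1 other (0.00745%) was called the opposite way. By comparison, 1180 transcripts (8.79%) were called in the same direction in both.

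Translational efficiency, how many footprints an mRNA yields for its RNA level, was fitted as the interaction of genotype and assay over the 12 libraries. None of the 10 genes was called, against 3 of 14786 transcripts (0.0203%; 0.00676% higher and 0.0135% lower), and 680 transcripts had an unadjusted p under 0.05. Among the 10, CSPG4 alone had an unadjusted p under 0.05. Its change was -1.01 ± 0.19 (edgeR adjusted p = 0.105), with an unadjusted p of 3.54e-05, the fifth smallest of all transcripts. The adjusted p was 0.00466 with the replicate block, 0.0520 with no filter on low counts and 0.304 with limma-voom, and DESeq2 gave none. It ran from 0.0466, without Nterm/Nterm RNA replicate 2, to 0.452 when 1 library was left out, with changes of -1.09 to -0.88. The replicate block here paired RNA and footprint libraries of the same genotype and number. In wt/wt the lowest correlation of such a pair, 0.0436, was under the floor of 0.1 set for pairing.

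The footprint call held without each of the 6 libraries, with adjusted p from 0.0181 to 0.0401. The RNA call was lost without Nterm/Nterm replicate 1 (0.38, adjusted p = 0.0684), Nterm/Nterm replicate 3 (0.23, adjusted p = 0.179), wt/wt replicate 1 (0.35, adjusted p = 0.138) and wt/wt replicate 2 (0.31, adjusted p = 0.166), and also with limma-voom (adjusted p = 0.0507). It held in edgeR with the replicate block (adjusted p = 0.0040), whose pairing was taken from the data. CSPG4 has near-identical pseudogene copies, and the sources used here do not say how reads shared with them were counted, so its values are uncertain.

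**Figure D3:**
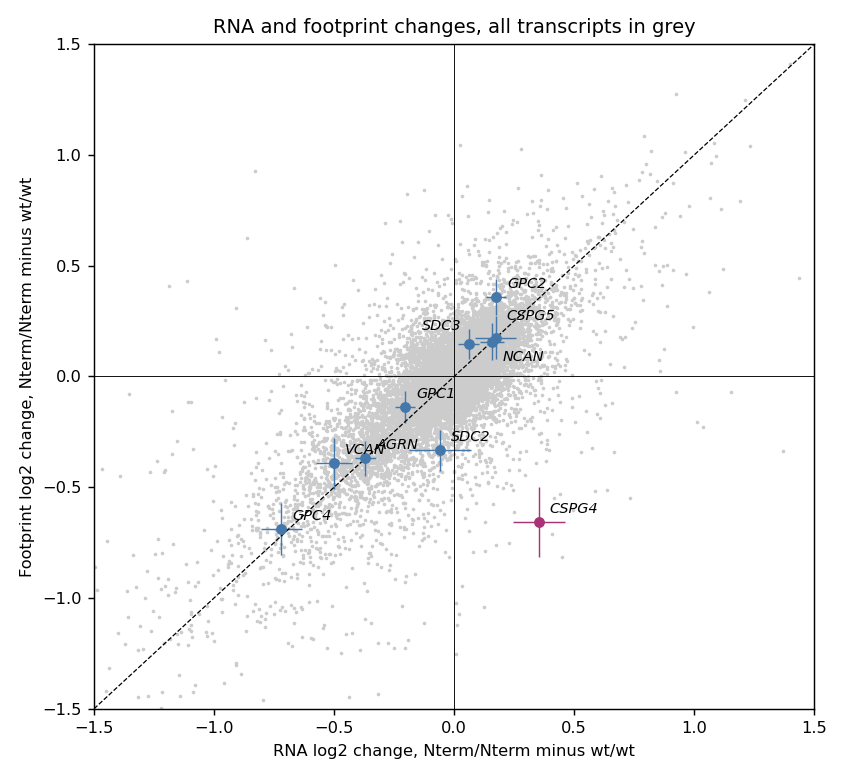
Log2 change in footprints against log2 change in RNA, Nterm/Nterm minus wt/wt, with the 10 genes named over 13387 transcripts tested in both. A further 35 transcripts lie outside the axes, which end at 1.5. CSPG4 lies at 0.35 in RNA and -0.66 in footprints, apart from the other 9, which lie nearer the line of equal change.

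CSPG5, or neuroglycan C, is a membrane-spanning chondroitin sulfate proteoglycan of neurons. Its RNA was 15.6, 15.1 and 16.7 CPM in wt/wt and 17.2, 19.5 and 16.9 CPM in Nterm/Nterm. The Nterm/Nterm libraries were all higher, yet the log2 change of 0.17 ± 0.09 was not called (adjusted p = 0.183). Its footprints, at 20.8, 19.7 and 24.3 CPM against 24.5, 23.9 and 24.5 CPM, overlapped between genotypes and were not called either (0.17 ± 0.10, adjusted p = 0.256).

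NCAN, or neurocan, is a secreted lectican found mainly in the nervous system. Its RNA was 206, 211 and 216 CPM in wt/wt and 223, 230 and 254 CPM in Nterm/Nterm, with no overlap, and the change of 0.16 ± 0.05 lay just outside the threshold (adjusted p = 0.0507). It was called with the replicate block (adjusted p = 0.000570), with DESeq2 size factors (0.0481), with no filter (0.0434), with DESeq2 (0.0341) and without Nterm/Nterm replicate 1 (0.20, adjusted p = 0.0401). Footprints of 262, 257 and 321 CPM against 287, 315 and 334 CPM overlapped and were not called (0.16 ± 0.08, adjusted p = 0.241), though they were without wt/wt replicate 3 (0.27, adjusted p = 0.0299).

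VCAN, or versican, is the lectican of many embryonic matrices, and it has splice forms of which 1 transcript was counted. Its RNA was 104, 102 and 89.3 CPM in wt/wt and 73.5, 73.6 and 61.1 CPM in Nterm/Nterm. RNA fell in all 3 libraries with no overlap, with a log2 change of -0.50 ± 0.08 (adjusted p = 0.00151), and the call held without each library. Its footprints were 331, 209 and 262 CPM in wt/wt and 195, 229 and 187 CPM in Nterm/Nterm. They fell with a log2 change of -0.39 ± 0.11 (adjusted p = 0.0274), but wt/wt replicate 2 lay below Nterm/Nterm replicate 2. The footprint call was lost without wt/wt replicate 1 (-0.22, adjusted p = 0.208), Nterm/Nterm replicate 1 (-0.36, adjusted p = 0.0916) or Nterm/Nterm replicate 3 (-0.33, adjusted p = 0.0619), and with DESeq2 (adjusted p = 0.256).

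Among the glypicans GPC4 fell most. GPC4, a glypican known from neural progenitors and from astrocytes, where it promotes synapse formation, had RNA at 47.1, 51.1 and 43.0 CPM in wt/wt and 28.9, 31.7 and 25.2 CPM in Nterm/Nterm. Its footprints were 115, 116 and 87.5 CPM against 67.4, 79.4 and 51.7 CPM. Neither assay showed overlap, and the falls were alike, at -0.72 ± 0.09 in RNA (adjusted p = 0.000446) and -0.69 ± 0.12 in footprints (adjusted p = 0.000650). Both calls held without each library, and translational efficiency changed by 0.03 ± 0.18, which was not called.

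GPC2, a glypican of developing neurons that binds midkine, moved the other way. Its RNA was 351, 351 and 379 CPM in wt/wt and 403, 408 and 408 CPM in Nterm/Nterm. Its footprints were 523, 534 and 630 CPM against 724, 736 and 704 CPM. All Nterm/Nterm libraries were higher in both assays, by 0.18 ± 0.04 in RNA (adjusted p = 0.0140) and 0.36 ± 0.08 in footprints (adjusted p = 0.00607). The RNA call was lost without wt/wt replicate 1 (0.16, adjusted p = 0.0899) or wt/wt replicate 2 (0.16, adjusted p = 0.0916), and the footprint call without wt/wt replicate 1 (0.30, adjusted p = 0.0637). In edgeR with the replicate block, whose pairing was taken from the data, the RNA call of GPC2 held (adjusted p = 4.44e-05). Translational efficiency changed by 0.18 ± 0.09, with an unadjusted p of 0.0599 and no call.

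GPC1, a glypican of neurons and other cells, had RNA at 222, 208 and 209 CPM in wt/wt and 187, 189 and 180 CPM in Nterm/Nterm. It fell with a log2 change of -0.20 ± 0.04 (adjusted p = 0.00822) with no overlap, a call lost without wt/wt replicate 1 (-0.17, adjusted p = 0.0597). In edgeR with the replicate block, whose pairing was taken from the data, the RNA call of GPC1 held (adjusted p = 3.21e-05). Its footprints were 216, 241 and 230 CPM against 205, 228 and 192 CPM, which overlapped and were not called (-0.14 ± 0.07, adjusted p = 0.237).

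Of the syndecans, SDC2, which takes part in dendritic spine formation, changed in footprints. Its RNA was 10.9, 11.6 and 9.02 CPM in wt/wt and 8.63, 11.4 and 10.2 CPM in Nterm/Nterm, with overlapping libraries and a change of -0.06 ± 0.13 (adjusted p = 0.787) whose sign turned without Nterm/Nterm replicate 1 (0.04) or wt/wt replicate 2 (0.01). Its footprints were 21.7, 23.0 and 22.4 CPM in wt/wt and 17.1, 17.9 and 18.2 CPM in Nterm/Nterm. The footprints fell with no overlap, with a log2 change of -0.33 ± 0.09 (adjusted p = 0.0227), a call lost without Nterm/Nterm replicate 1 (-0.31, adjusted p = 0.0837) or wt/wt replicate 2 (-0.32, adjusted p = 0.0897). The difference between the assays was not called, with a translational efficiency change of -0.27 ± 0.15 and an unadjusted p of 0.0891.

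SDC3, the syndecan of axons and a receptor of pleiotrophin, was not called in either assay. Its RNA was 357, 349 and 366 CPM in wt/wt and 364, 364 and 390 CPM in Nterm/Nterm (0.06 ± 0.04, adjusted p = 0.360). Its footprints were 163, 169 and 183 CPM against 192, 193 and 183 CPM, with Nterm/Nterm replicate 3 only just above wt/wt replicate 3 (0.14 ± 0.07, adjusted p = 0.164).

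AGRN, or agrin, is a secreted heparan sulfate proteoglycan that organises the neuromuscular junction and is a component of basement membranes. Its RNA was 484, 474 and 446 CPM in wt/wt and 360, 377 and 350 CPM in Nterm/Nterm. Its footprints were 508, 558 and 524 CPM against 405, 450 and 377 CPM. The genotypes did not overlap in either assay, and the falls were the same size, -0.37 ± 0.05 in RNA (adjusted p = 0.000468) and -0.37 ± 0.08 in footprints (adjusted p = 0.00373). Both calls held without each library, and translational efficiency changed by 0.00 ± 0.09. In bulk samples such as these, fewer cells of a type and less RNA per cell cannot be told apart.

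The promoter windows of the genes called in both assays are shown where the window lies outside the gene's own RefSeq record, because these 3 genes were called in both assays, 2 lower and 1 higher. Each is the 250 bases before the gene's start in RefSeq, assembly GRCh38.p14, read 5′ to 3′ on the gene's strand, and that start need not be the start of the counted transcript. VCAN is at chr5:83471494-83471743 on the plus strand, GPC2 at chr7:100177382-100177631 on the minus strand and GPC4 at chrX:133415490-133415739 on the minus strand. Capitals mark CCGCCC, the core of the GC box, on the printed strand.
VCAN: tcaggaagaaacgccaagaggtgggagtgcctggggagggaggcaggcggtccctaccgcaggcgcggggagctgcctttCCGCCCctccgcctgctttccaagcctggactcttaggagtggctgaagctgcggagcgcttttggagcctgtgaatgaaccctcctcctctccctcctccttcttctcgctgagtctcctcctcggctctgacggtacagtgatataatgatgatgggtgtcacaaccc
GPC2: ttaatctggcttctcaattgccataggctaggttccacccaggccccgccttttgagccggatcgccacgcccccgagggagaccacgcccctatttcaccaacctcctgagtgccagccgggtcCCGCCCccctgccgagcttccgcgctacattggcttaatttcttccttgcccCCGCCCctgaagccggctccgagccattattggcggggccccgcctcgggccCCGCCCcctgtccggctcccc
GPC4: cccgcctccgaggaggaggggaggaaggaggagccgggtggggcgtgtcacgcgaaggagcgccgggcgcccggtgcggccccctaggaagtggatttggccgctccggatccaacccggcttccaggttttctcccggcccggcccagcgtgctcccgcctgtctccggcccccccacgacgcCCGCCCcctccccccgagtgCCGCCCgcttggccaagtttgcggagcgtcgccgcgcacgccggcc
Promoter windows were examined for 7 of the 10 genes, and not for NCAN, SDC2 and AGRN. CCGCCC, searched on both strands, was found in 42.6% of 35116 such windows, and VCAN, which fell, holds 1 match, GPC2, which rose, 3 and GPC4, which fell, 2. Among the windows not shown, GPC1, which fell in RNA, holds 4 and CSPG4, which rose in RNA and fell in footprints, holds 1. SDC3, not called, holds 5, and the 2 windows of CSPG5, not called, hold 0 and 3. The E-box forms CAGATG (12.2% of windows) and CACGTG (6.34%) and the TATA sequence TATAAA (10.7%) were not found in any window of the 7 genes, and CAGCTG (14.0%) was found in CSPG4 alone, 1 match. The share of G and C was 60.8% in VCAN, 66.8% in GPC2 and 76.0% in GPC4, against a median of 58.0% over all windows.

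The authors' deposited table gives the ratio of footprints to RNA per genotype, and it orders the 10 genes widely. In wt/wt, VCAN had the highest ratio in the authors' deposited table at 2.63 ± 0.558 (SD), then GPC4 at 2.17 ± 0.196 and SDC2 at 2.07 ± 0.273, and these neighbours overlap within 1 SD. Next in the authors' deposited table came GPC2 at 1.51 ± 0.0869, apart from SDC2 above it and from CSPG5 (1.32) below it. CSPG5, NCAN (1.28), AGRN (1.09) and GPC1 (1.04) form a run in which neighbours overlap, near the median of 1.11 over all 10932 transcripts of the authors' deposited table. GPC1 is apart from CSPG4 below it. CSPG4 at 0.491 ± 0.0420 and SDC3 at 0.463 ± 0.0228 lay lowest in the authors' deposited table and overlap with each other.

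In Nterm/Nterm, CSPG4 had a ratio of 0.246 ± 0.0393 in the authors' deposited table, which is 0.501 of its wt/wt ratio (deposited unadjusted p = 0.00183). That moved it from percentile 13.6 to 5.20 of the authors' deposited table, and its p was the tenth smallest there. GPC2 went from 1.51 to 1.70 in the authors' deposited table (deposited unadjusted p = 0.0470), and SDC2 from 2.07 to 1.70 (deposited unadjusted p = 0.134). The other 7 genes had ratios of Nterm/Nterm to wt/wt from 0.989 to 1.07 in the authors' deposited table, which lists 4.67% of its transcripts with p under 0.05 and has a smallest p of 0.443 after adjustment.

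**Figure D4:**
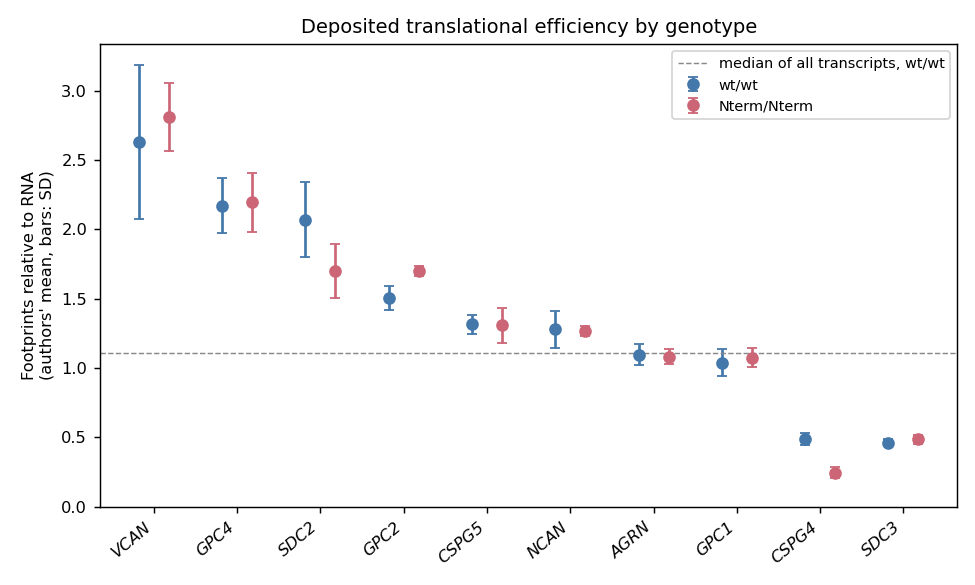
Ratio of footprints to RNA of the 10 genes in the authors' deposited table, mean and SD per genotype, ordered by the wt/wt mean. CSPG4 falls from 0.491 to 0.246, and the SDs of the genotypes overlap for every gene but CSPG4 and GPC2.

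Other genes of the pathway were followed in 8 lists, beside the background of 7.25% higher and 10.6% lower in RNA, 4.36% and 8.91% in footprints, and medians near 0 over all transcripts. Of the 13 other proteoglycan core proteins with a named transcript, 2 rose and 6 fell in RNA (median -0.22), and 2 rose and 5 fell in footprints (median -0.08). The basement membrane proteoglycans COL18A1, whose fragment is endostatin, and HSPG2, or perlecan, fell most, with log2 changes of -0.94 ± 0.11 and -0.85 ± 0.12 in RNA and -0.74 ± 0.10 and -0.80 ± 0.13 in footprints. SDC4, a widely expressed syndecan, fell in RNA with a log2 change of -0.44 ± 0.08, and NRP1, the semaphorin receptor, fell in footprints with a log2 change of -0.40 ± 0.07. GPC6 was called lower in both assays, -0.46 and -0.38, but the RNA call was lost without wt/wt replicate 2 (adjusted p = 0.0676) and the footprint call without Nterm/Nterm replicate 1 (adjusted p = 0.104) or wt/wt replicate 2 (adjusted p = 0.166).

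Of 16 genes listed under linkage region and sugar supply, 1 rose and 1 fell in RNA (B3GALT6, 0.18, and GOLIM4, -0.31). None was called in footprints (medians -0.10 and 0.02). GOLIM4 is a Golgi protein whose part in this step was not examined here. With the replicate block 4 of the 16 were called in RNA, and without wt/wt RNA replicate 1 or 2 none was. Of the genes that build and edit heparan sulfate, 3 of 15 rose and 2 fell in RNA, and 4 of 14 rose and 2 fell in footprints (medians -0.01 and 0.04). HS3ST4, a 3-O-sulfotransferase of brain, rose in RNA by 0.49 ± 0.07, and SULF2, which removes 6-O-sulfate outside the cell, fell with a log2 change of -0.33 ± 0.06. The calls of HS3ST5 (0.26 in RNA, 0.35 in footprints) and HS6ST2 (-0.32 and -0.34) and the footprint calls of HS3ST4 (0.44) and HS6ST1 (0.28) were each lost without at least 1 library. The list had 2 RNA calls without wt/wt replicate 1 or 2, and 1 footprint call without Nterm/Nterm replicate 3 or wt/wt replicate 2.

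Of 11 chondroitin sulfate enzymes, 4 fell and none rose in RNA (median -0.09), and 2 fell and none rose in footprints (median -0.03). The 6-O-sulfotransferase CHST3 fell with a log2 change of -0.59 ± 0.10 in RNA and -0.60 ± 0.11 in footprints, and CHST15, which adds a further sulfate to make chondroitin sulfate E, with a log2 change of -0.51 ± 0.08 and -0.63 ± 0.12. The chain polymerising factor CHPF fell in RNA with a log2 change of -0.36 ± 0.06, and CHST14 with a log2 change of -0.49, a call lost without wt/wt replicate 2 (adjusted p = 0.0674). Of 15 breakdown genes, 5 fell and none rose in RNA and 3 fell and none rose in footprints (medians -0.12 and -0.16). HEXA, a lysosomal enzyme, fell in footprints with a log2 change of -0.39 ± 0.08. Without wt/wt RNA replicate 1 or 2, 1 gene of the list was called in RNA, and ARSG, SUMF1 and HEXA in RNA and GUSB and GLB1 in footprints lost their calls without at least 1 library.

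Receptors and membrane partners were split, with 6 of 21 higher and 4 lower in RNA and none higher and 3 lower in footprints (medians 0.05 and 0.04). PTPRF, or LAR, a receptor phosphatase of the family that binds both kinds of chain, fell in RNA with a log2 change of -0.31 ± 0.05, and DAG1, or dystroglycan, a receptor of agrin, with a log2 change of -0.28 ± 0.05. The RNA count of 10 was 15 with the replicate block and 2 without wt/wt replicate 1 or 2, and without Nterm/Nterm footprint replicate 3 the footprint count was 0, and the footprint calls of EGFR (-0.28), DAG1 (-0.27) and PTPRF (-0.26) and the RNA calls of ITGB1 (-0.25) and ROBO1 (0.22) were each lost without at least 1 library.

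Matrix partners and ligands, where called, were mostly lower. Of 17, 8 fell and 4 rose in RNA (median -0.16), and 7 fell and 1 rose in footprints (median -0.14). Laminin chains LAMA1 (-0.80 ± 0.09 in RNA, -1.08 ± 0.12 in footprints) and LAMB1 (-0.69 ± 0.08 and -0.68) fell, as did tenascin TNC (-0.74 ± 0.13 and -0.71) and HAPLN1 (-0.70 ± 0.09 and -0.61), which ties lecticans such as VCAN and NCAN to hyaluronan. Of 17 proteases that cut core proteins and TIMP inhibitors of them, 11 fell and none rose in RNA (median -0.19), and 10 fell and none rose in footprints (median -0.27). The gelatinases MMP9 (-1.16 ± 0.13 and -0.97 ± 0.10) and MMP2 (-0.88 ± 0.11 and -0.74 ± 0.10) fell together with the inhibitors TIMP1 (-0.57 ± 0.11 and -0.52 ± 0.09) and, in RNA, TIMP3 (-0.64 ± 0.10), and BACE2, a membrane protease, fell in footprints with a log2 change of -0.53 ± 0.10. The count fell to 7 in RNA without wt/wt replicate 1 or 2 and to 6 in footprints without Nterm/Nterm replicate 3. No gene of the 8 lists was called for translational efficiency without the replicate block, and with it 1 of the matrix list was.

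**Figure D5:**
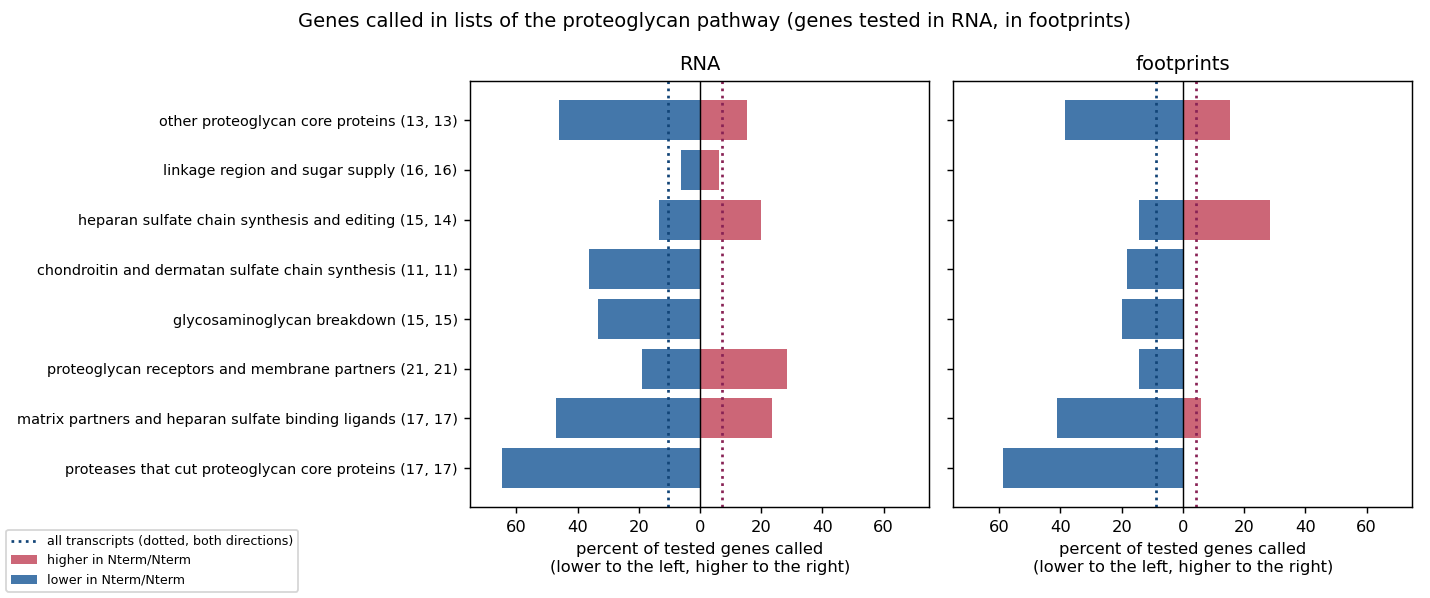
Percent of tested genes called lower (bars to the left) or higher (bars to the right) in Nterm/Nterm in each of 8 lists of the pathway, for RNA and for footprints, with dotted lines at the percent over all transcripts. Proteases and their inhibitors show 11 lower and 0 higher in RNA and 10 lower and 0 higher in footprints.

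Markers of cell types moved beside these changes. Over all transcripts, 7.25% were called higher and 10.6% lower in RNA, and 4.36% and 8.91% in footprints. Mesenchymal markers, 8 of 15 with a named transcript, had 6 lower and 1 higher (THY1, which neurons also express) in RNA (median -0.66), with summed levels of 4072 to 4991 CPM in wt/wt and 2667 to 3511 CPM in Nterm/Nterm, and 5 lower in footprints, FN1 being in the matrix list too. Neuron markers, 12 of 12, had 6 higher and none lower in RNA (10255 to 11033 CPM in wt/wt, 11568 to 12894 CPM in Nterm/Nterm) and 3 higher in footprints. Neural progenitor markers, 7 of 12, had 5 lower and 1 higher in RNA (1161 to 1251 CPM against 907 to 1058 CPM). In footprints they had 4 lower and 1 higher, and their sums overlapped (1366 to 1707 CPM against 1355 to 1590 CPM). Their part in the fall of VCAN, GPC4, AGRN and the matrix genes and in the rise of GPC2 was not tested.

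For the cell types in which CSPG4 is best known, the markers were few. The counts below stand beside 7.25% higher and 10.6% lower in RNA over all transcripts, and 4.36% and 8.91% in footprints. Pericyte and smooth muscle markers, 6 of 12, had 3 lower and none higher in RNA. Their summed level in RNA was 777 to 907 CPM in wt/wt and 610 to 745 CPM in Nterm/Nterm. Of 12 markers of oligodendrocyte precursors and oligodendrocytes, 1 had a named transcript, PTPRZ1, at 12.1 to 13.6 CPM in wt/wt and 9.50 to 13.1 CPM in Nterm/Nterm, not called, and the other 11, OLIG2, SOX10 and PDGFRA among them, were not analysed here. Astrocyte markers, 4 of 8, had 1 lower and none higher in RNA, GJA1 (170.8 to 182.3 CPM summed against 176.9 to 179.6 CPM), and pluripotent stem cell markers, 6 of 10, had 2 lower and none higher (727 to 803 CPM against 556 to 646 CPM). In footprints, 3 pericyte and smooth muscle markers, 1 astrocyte marker and 1 stem cell marker were called lower and none higher. The part of these markers in the CSPG4 result was not tested.

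The transcripts whose level followed each of 2 genes most closely were ranked by Pearson r of log2 CPM over the 12 libraries, centred within each assay, among 10717 named transcripts. These points share libraries and depth, so the values are a description. The genotype difference was left in, so a direction of change shared with the reference gene follows from the ranking and is not a separate result. For CSPG4 they were TRIOBP (0.879), DDHD2 (0.861), PHAF1 (0.850), RAPGEF6 (0.846) and CD47 (0.844), and none of the 5 was called in any comparison. For AGRN they were FBLN1 (0.991), COL6A2 (0.989), MSX2 (0.987), MXRA8 (0.987) and TPP1 (0.984), all 5 called lower in RNA and in footprints, with RNA changes from -1.40 in MXRA8 to -0.40 in MSX2. FBLN1 and COL6A2, the latter also on the mesenchymal list, are matrix proteins, MSX2 a transcription factor and TPP1 a lysosomal protease.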

How the data were processed

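RNA-seq and Ribo-seq libraries from 2 genotypes of induced neurons were analysed, 3 per genotype and assay. The authors deposited whole-number counts per transcript for 12 libraries, not normalised, and a table of translational efficiency with a mean ratio of footprints to RNA, its SD and an unadjusted p-value, per the file headers. Its column of Nterm/Nterm over wt/wt equalled the quotient of the deposited means of the genotypes within 1e-06 for 10932 transcripts. The submitters' processing notes name, without saying what each was for, Salmon 1.4.0, Bowtie2 2.3.4.3, limma, edgeR, UMI-tools 1.0.1 and cutadapt 2.4, and the build GRCh37. The sources used here do not say how reads shared between transcripts were counted.

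Transcripts were named through the deposited table of translational efficiency, in which each transcript has at least 1016 counts in all, so unnamed transcripts of other genes were not followed. The test on counts was edgeR 4.0.16 under R 4.3.3 (TMM scaling, filterByExpr, quasi-likelihood, Benjamini-Hochberg adjustment over all transcripts): genotype within RNA and within footprints, and their interaction over 12 libraries for translational efficiency. The tests were checked on simulated data with known changes, the same spread for all transcripts and no effect of replicate number. The RNA libraries deviate together by number, so the check covers simpler data than these and does not show how the tests perform here. In the footprint check the changes were placed in transcripts with higher mean counts than CSPG4 has in footprints. Alternatives were DESeq2 size factors, no filter, DESeq2 1.42.0, limma-voom (limma 3.58.1), a replicate block, the genotype tag and leaving out each library. Within an assay the block joined same-numbered libraries of the genotypes. For translational efficiency it joined same-numbered RNA and footprint libraries of a genotype.

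Same-numbered RNA libraries of the genotypes deviated together (correlations 0.128, 0.141 and 0.303 over 12984 transcripts), and the fit with the replicate block pairs them by number. This pairing comes from the data, since no label gives it. The main RNA fit leaves it out, so RNA values are unpaired unless the block is named. Members, gene lists and tests were chosen with earlier results of these data known. Of each list, at most the 4 called genes with the largest change per assay are named (2 for translational efficiency), and of likeness the 5 with the highest r. The value of a glycosaminoglycan breakdown gene among them is not reported here. Promoter sequences are RefSeq's (GRCh38.p14). The design text of the series is about another experiment and was not used.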

Additional observations from a re-analysis of the deposited data

Results flagged for a closer look

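CSPG4 was flagged because every Nterm/Nterm RNA library lay above every wt/wt RNA library while every Nterm/Nterm footprint library lay below every wt/wt footprint library. Over all transcripts, 17.4% were higher without overlap in RNA and 15.9% were lower without overlap in footprints. The share with both was not counted, so the pattern alone does not show that CSPG4 is unusual. The difference between the assays was tested as the genotype by assay term: the log2 change of translational efficiency was -1.01 ± 0.19 with edgeR's quasi-likelihood test (adjusted p = 0.105), with an unadjusted p of 3.54e-05, so it did not pass the threshold over 14786 transcripts. With the replicate block it did (adjusted p = 0.00466). For translational efficiency that block paired RNA and footprint libraries by number within a genotype. In wt/wt this pairing did not meet the floor of 0.1, with a lowest correlation of 0.0436.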

How the results depend on the processing

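Depth limits CSPG4, with 47 to 101 footprint reads per library. With the replicate block, 4504 transcripts were called in RNA against 2624, and for translational efficiency 20 against 3, with 1 of the 10 genes (CSPG4) against none; same-numbered footprint libraries correlated at 0.0301, 0.125 and 0.272, so footprints do not count as paired across genotypes. Between RNA and footprints, same-numbered libraries correlated at 0.151, 0.295 and 0.397 in Nterm/Nterm and at 0.0436, 0.0842 and 0.188 in wt/wt, so the numbers pair the assays in Nterm/Nterm alone by the floor of 0.1. The block changed no other call among the 10 genes than those of NCAN in RNA and CSPG4. DESeq2 called 38 for translational efficiency. With 1 library left out, calls ranged from 841 to 2851 in RNA (3 to 6 of the 10 genes), 954 to 2045 in footprints (4 to 7) and 2 to 4 for translational efficiency (0 to 1). RNA calls were fewest without wt/wt replicate 1 (841), wt/wt replicate 2 (964) and Nterm/Nterm replicate 3 (1729), and footprint calls without wt/wt replicate 1 (954), Nterm/Nterm replicate 3 (965) and wt/wt replicate 2 (978); the cause was not tested. Leave-one-out values changed sign for SDC2 RNA (-0.16 to 0.0388) and for translational efficiency of AGRN (-0.0694 to 0.0593), CSPG5 (-0.0672 to 0.0925), GPC4 (-0.12 to 0.19), NCAN (-0.0616 to 0.11) and VCAN (-0.0437 to 0.28). Near 0, translational efficiency also changed sign with DESeq2 size factors (CSPG5 -0.00169, NCAN -0.00223, AGRN -0.00248), with DESeq2 (NCAN -0.00248, AGRN -0.0025) and with the block (AGRN -0.000456). With the genotype tag, the footprint changes turn by construction: CSPG4 0.66, CSPG5 -0.17, NCAN -0.16, VCAN 0.39, GPC1 0.14, GPC2 -0.36, GPC4 0.69, SDC2 0.33, SDC3 -0.14 and AGRN 0.37. Translational efficiency then reversed for CSPG4 (0.30), CSPG5 (-0.35), NCAN (-0.31), GPC2 (-0.53), SDC2 (0.39) and SDC3 (-0.20), with 4150 transcripts and 7 of the 10 genes called. Of 54 pairs of a named list gene and an assay, 21 lost the call without some library and 0 reversed.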
